A study of Mus musculus with 32 samples.

Results

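Gene expression was compared between Chd8 heterozygous (het) and wild-type (WT) mouse embryos at embryonic day 12.5 (E12.5), in single cells of the dorsal telencephalon, the part of the embryonic forebrain that becomes the cerebral cortex. The comparison takes the libraries whose labels give this stage, 4 het and 4 WT of the 32 libraries of a series that runs on to E17.5. Barcodes with at least 1000 UMIs and at least 500 genes were kept, which gave 40792 of the 143705 such barcodes of the series. A UMI is a tag that marks a captured RNA molecule, and the UMIs of all kept barcodes were summed per library, so that a library and not a cell is the replicate. WT embryos were unmodified and het embryos were Chd8+/-, all on the C57BL/6J strain, and no other allele or treatment is named in the labels. Tissue of each embryo made a library of its own, and males are called M1 and M2 and females F1 and F2. Per the series' design text, embryos of both genotypes were collected as pairs from the same litter and of the same sex, and libraries that share a name are treated here as a pair. Where in Chd8 the alteration lies is not given in the labels. The medial wall of the tissue, which forms the hippocampus, was cut away in the dissection.

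Chd8 encodes a chromatin remodeller of the CHD family, whose members use the energy of ATP to move nucleosomes. Loss of a copy of the human gene is a known cause of autism with an enlarged head, and the protein is known to bind the promoters of many active genes and to interact with beta-catenin, the effector of Wnt signalling. At E12.5 most cells of the dorsal telencephalon are radial glia, the dividing stem cells of the cortex, which give rise to intermediate progenitors and through them to excitatory neurons. The cortical hem, a strip at the medial edge, is a source of Wnt ligands and R-spondins and of Cajal-Retzius neurons.

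The 8 libraries held between 20210276 UMIs, in het F1, and 66499864 UMIs, in WT F2. WT libraries M1, M2, F1 and F2 held a median of 8764, 10091, 10677 and 10170 UMIs per barcode, and their het partners 6154, 10727, 4167 and 6137. Depth was lower in the het library of 3 pairs and slightly higher in that of the M2 pair, with ratios of 0.702, 1.06, 0.390 and 0.603. Averaged over the 4 libraries of a genotype, the median was 6796 (SD 2782) for het and 9925 (SD 817) for WT. The het minus WT difference of -3129 was larger than either SD. Het M1, F1 and F2 lay below every WT library, while het M2 lay above them all. A two-sided exact permutation test between the groups gave p = 0.143. It did not use the pairs, so it does not measure the difference within them. A code in the labels, whose meaning is not stated, starts alike in the M1, F1 and F2 pairs and differently in the M2 pair. The mitochondrial share of a barcode had a median of 0.976 ± 0.0401% in het and 0.898 ± 0.105% in WT libraries (SD, n = 4 each; p = 0.2, exact permutation test). Markers of radial glia summed to between 5125 and 5577 CPM (the number of UMIs relative to the library's total) over the 8 libraries, against between 3.23 and 54.4 CPM for markers of the ventral telencephalon. Sums over markers, here and below, are scaled by library totals alone. The CPM of a single gene is also scaled by the TMM method of edgeR, unless stated otherwise. Any pair of the 8 libraries shared between 22 and 62 barcode sequences. Since depth moves with the genotype in 3 of 4 pairs, the value in the M2 pair and the change fitted with the median number of UMIs as a covariate stand beside many of the results that follow. Genotype and depth cannot be told apart in the other 3 pairs.

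Chd8 itself (ENSMUSG00000053754, GRCm38 chromosome 14, 52198151 to 52257780, minus strand) was lower in the het embryo of each pair. Its level in CPM was 48.0, 45.5, 44.3 and 45.4 in WT M1, M2, F1 and F2. In het it was 38.7, 38.0, 25.0 and 40.1. The groups did not overlap, 3 het libraries lay close together, and het F1, the shallowest library, was the lowest. The log2 fold change was -0.37 (SE 0.14), which did not pass the test over all genes (edgeR adjusted p = 0.190), and passed it with the pair as a block (edgeR adjusted p = 0.0160). With depth as a covariate it was -0.28 (edgeR unadjusted p = 0.107). Within radial glia-like, intermediate progenitor-like and excitatory neuron-like cells the log2 fold change was -0.36, -0.31 and -0.38, and each class was lower in het in 4 of 4 pairs. A small nucleolar RNA, Snord8, lies within the gene on its strand and Gm26590 on the opposite strand. A 3′ tag may lie outside the altered part, which limits what the level says about the labels.

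**Figure D1:**
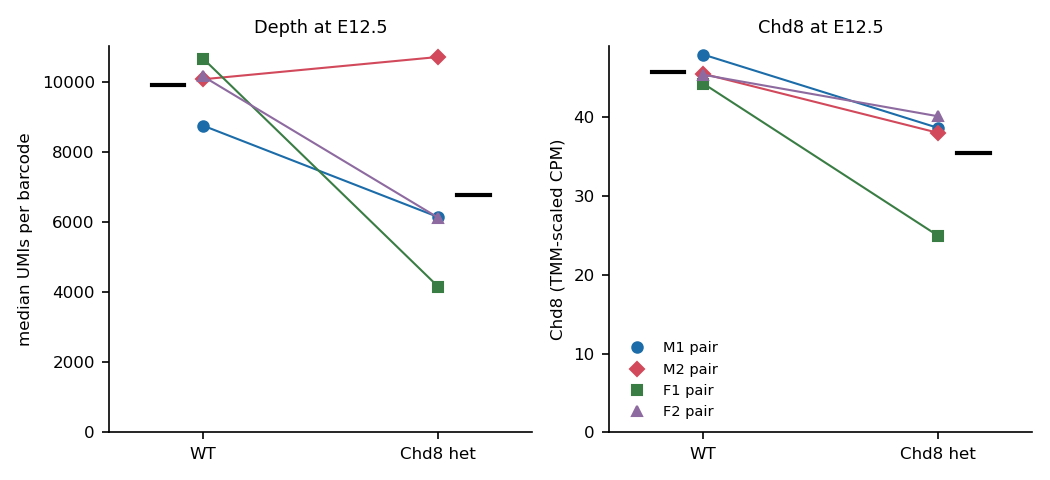
Median UMIs per barcode (left) and Chd8 in TMM-scaled CPM (right) in the 8 libraries at E12.5. Each marker is a library, a line joins the WT and the het library of a pair, and black bars are group means. Depth was lower in het in the M1, F1 and F2 pairs and not in the M2 pair, while Chd8 was lower in het in all 4 pairs.

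Across all genes, 75 of 15997 passed an adjusted p of 0.05 in edgeR's quasi-likelihood test, which is 0.469% of those tested. Of these, 52 were higher in het (0.325%) and 23 were lower (0.144%), and 2527 genes had an unadjusted p under 0.05. When libraries were scaled by their totals in place of TMM, the count was 34, with 15 higher and 19 lower, and the median log2 fold change of all genes moved from -0.03 to -0.11. A block for the pair raised the count to 1191 higher (7.45%) and 1093 lower (6.83%), and these included all 75. With depth as a covariate 0 genes passed by edgeR, with 721 at an unadjusted p under 0.05, and the 52 and the 23 genes all kept their sign. The E12.5 libraries tested alone gave 0 genes by edgeR, with 3528 at an unadjusted p under 0.05. DESeq2 called 687 genes, 522 higher and 165 lower, among them 73 of the 75. Single libraries set the count: it was 3, 42, 9 and 12 without WT M1, M2, F1 or F2, and 6, 1537, 1 and 20 without het M1, M2, F1 or F2. The gene left without het F1 was Krt10.

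Among the genes that stood apart in every pair, the M2 pair included, was Crlf2, a cytokine receptor subunit that binds thymic stromal lymphopoietin (chromosome 5, 109554709 to 109558993, minus strand). Its CPM was 7.26, 6.55, 7.32 and 6.25 in WT M1, M2, F1 and F2, and 12.1, 11.9, 11.6 and 11.6 in the het libraries. The 4 het libraries lay within a narrow band above all WT libraries. The log2 ratio was 0.85 in the M2 pair and 0.73, 0.65 and 0.89 in the M1, F1 and F2 pairs. The log2 fold change was 0.78 (SE 0.14, edgeR adjusted p = 0.0122), and it was 0.62 with depth as a covariate. In the fit with both the pair as a block and depth as a covariate, Crlf2 was the 1 gene that passed (edgeR adjusted p = 0.00599). It was also the 1 gene of 13811 that passed within radial glia-like cells (0.00724%), with a log2 fold change of 0.86 (SE 0.10, edgeR adjusted p = 0.0344), and there it did not pass with the pair as a block (edgeR adjusted p = 0.0540).

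Zcwpw1, which encodes a reader of methylated histone H3 known from meiosis, had a like pattern (chromosome 5, 137787798 to 137822621, plus strand). WT libraries were at 5.66, 5.91, 5.14 and 6.15 CPM, against 10.96, 10.2, 12.3 and 8.07 CPM in het M1, M2, F1 and F2. All het libraries exceeded all WT libraries, het F2 by the least. The log2 fold change was 0.86 (SE 0.16, edgeR adjusted p = 0.0149) and 0.73 with depth as a covariate. Pilra lies across the gene on the opposite strand. Crlf2 and Zcwpw1 were listed because earlier results of these data had shown them raised at all stages, so their direction here is no independent evidence. The other genes on that list were Car14, a carbonic anhydrase, and Gsta4, a glutathione transferase. They were lower in het in 4 of 4 pairs without passing the test, at log2 fold changes of -0.19 (edgeR adjusted p = 0.747) and -0.43 (edgeR adjusted p = 0.226). With the pair as a block, Gsta4 passed (edgeR adjusted p = 0.0177).

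Promoter windows are printed for these genes, which rose in every pair, and for Krt10, the gene with the smallest adjusted p. They run from 250 bases before to 50 bases after the RefSeq start site in GRCm38.p6, and are written 5′ to 3′ on the strand of the gene. The windows lie at chr5:109558944-109559243 (minus strand) for Crlf2, at chr5:137787552-137787851 (plus strand) for Zcwpw1 and at chr11:99389315-99389614 (minus strand) for Krt10. Capitals mark matches to 4 motifs searched on both strands, the GC box GGGCGG, the TATA box TATAAA, the NRF1 motif and the ETS motif CCGGAAG.
Crlf2: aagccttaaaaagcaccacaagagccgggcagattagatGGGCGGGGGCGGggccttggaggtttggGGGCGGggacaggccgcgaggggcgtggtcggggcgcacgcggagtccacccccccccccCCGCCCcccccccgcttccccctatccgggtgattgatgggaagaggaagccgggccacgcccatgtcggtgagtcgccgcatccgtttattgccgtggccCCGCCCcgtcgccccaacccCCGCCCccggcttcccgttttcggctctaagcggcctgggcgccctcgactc
Zcwpw1: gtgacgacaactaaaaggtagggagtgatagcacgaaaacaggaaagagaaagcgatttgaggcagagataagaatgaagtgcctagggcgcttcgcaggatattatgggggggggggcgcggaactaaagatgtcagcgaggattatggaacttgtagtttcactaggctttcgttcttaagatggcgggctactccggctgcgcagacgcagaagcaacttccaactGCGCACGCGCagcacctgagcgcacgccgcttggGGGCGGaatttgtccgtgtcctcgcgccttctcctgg
Krt10: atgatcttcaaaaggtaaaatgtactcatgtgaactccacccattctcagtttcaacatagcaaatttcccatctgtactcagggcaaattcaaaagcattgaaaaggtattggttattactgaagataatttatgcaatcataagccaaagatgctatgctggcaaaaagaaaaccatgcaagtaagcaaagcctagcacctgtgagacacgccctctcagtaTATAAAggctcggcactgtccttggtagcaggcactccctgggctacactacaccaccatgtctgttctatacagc
The Crlf2 window held 6 GC boxes and 31 CpG dinucleotides at 71.7% G and C. The Zcwpw1 window held 1 GC box, 1 NRF1 motif and 23 CpG dinucleotides, and the Krt10 window held 1 TATA box and 2 CpG dinucleotides. The ETS motif was in none of the 3 windows. Of 32851 RefSeq windows of this length, 35.7% held a GC box, 13.6% the TATA box, 4.60% the NRF1 motif and 8.86% the ETS motif, and the median number of CpG dinucleotides was 7. A match describes the letters of a window, and no binding was measured.

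Of the 52 genes called higher, 12 changed by at least 0.5 times as much in the M2 pair as in the mean of the other pairs, on the log2 scale. Besides Crlf2 and Zcwpw1 they were Vpreb1, Xrcc4, Lyrm7, Gdf9, Angptl6, Flad1, Stoml1, Schip1, Fbxl12os and Xlr4a, and those described here were chosen after their values were seen. Vpreb1, known as a surrogate light chain of B cell precursors, was at 1.25, 0.936, 1.15 and 1.06 CPM in WT and at 1.98, 1.99, 2.77 and 2.40 CPM in het libraries. Each het library exceeded every WT library. It rose by 1.03 on the log2 scale (SE 0.18, edgeR adjusted p = 0.0122). Xrcc4, a factor that joins broken DNA ends together with ligase IV, was at 12.6, 14.1, 11.9 and 12.1 CPM in WT and at 15.3, 18.7, 21.2 and 17.9 CPM in het libraries, again without overlap. It rose by 0.53 on the log2 scale (SE 0.11, edgeR adjusted p = 0.0230). Vpreb1 lies across Top3b and Xrcc4 across Tmem167, each on the opposite strand, and whether counting used strand is not given in the sources used here. Lyrm7, an assembly factor of respiratory complex III, was at 4.02, 4.11, 3.74 and 4.29 CPM in WT and at 6.05, 6.01, 6.62 and 5.87 CPM in het libraries. Its groups did not overlap, the het libraries lay close together, and the log2 fold change was 0.60 (SE 0.11, edgeR adjusted p = 0.0122), or 0.57 with depth as a covariate. Xlr4a, an X-linked gene of a multicopy family whose copies may share reads, was at 1.398 CPM in het M2 and 0.666 CPM in het F2, and at 0.0403 CPM or less in the other 6 libraries, so that its call rested on 2 embryos.

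The other 40 genes called higher changed less in the M2 pair. Krt10, a keratin gene (chromosome 11, 99385254 to 99389364, minus strand), was at 64.5, 67.3, 64.9 and 66.0 CPM in WT and at 114, 83.4, 140.3 and 111 CPM in het M1, M2, F1 and F2. Every het library exceeded the WT libraries, het M2 by the least and the shallowest, het F1, by the most. The log2 fold change was 0.77 (SE 0.11, edgeR adjusted p = 0.00328) and 0.48 with depth as a covariate, and the M2 pair gave 0.31. Lamtor2, a subunit of the complex that anchors mTORC1 at lysosomes, was at 185, 192, 185 and 209.6 CPM in WT and at 288, 197, 395 and 289 CPM in het libraries. Its groups overlapped, since het M2 lay below WT F2, and it rose by 0.60 (SE 0.13, edgeR adjusted p = 0.0350), with 0.24 with depth as a covariate. Trappc2, an X-linked subunit of a vesicle tethering complex, was at 24.03, 26.6, 21.8 and 22.7 CPM in WT and at 31.9, 32.8, 53.5 and 31.3 CPM in het M1, M2, F1 and F2. Its groups did not overlap, and het F1, the shallowest library, stood far above the other 3 het libraries, which lay close together. Ofd1 lies across it on the opposite strand.

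Some of the genes called higher are described by role, picked after their values were seen and from no list. Syf2, U2af1l4, Zmat5, Ewsr1, Rbm4b, Sarnp, Frg1 and Rpp21 act in splicing, mRNA export or tRNA maturation, and their log2 fold changes ran from 0.36 for Syf2 to 0.57 for Rpp21. In the M2 pair Sarnp was level, and the others ran from 0.01 for Rbm4b to 0.15 for Frg1. Of the 40 tested splicing factors on a list, 0 were called by edgeR, with a median log2 fold change of 0.01, and with the pair as a block 6 were higher (15%, against 7.45% of all genes) and 3 lower (7.5%, against 6.83%). Other picked genes encode proteins of the mitochondrion, namely Ndufb10, a subunit of respiratory complex I, the ribosomal proteins Mrps10 and Mrpl22, the cytochrome oxidase assembly factors Coa3 and Cox14, and Bola1. Their log2 fold changes ran from 0.38 for Ndufb10 and Mrpl22 to 0.55 for Bola1, and in the M2 pair from -0.03 for Mrpl22 to 0.12 for Mrps10. Chmp2a, a subunit of the ESCRT-III membrane-cutting complex, rose by 0.49 (SE 0.08, edgeR adjusted p = 0.00522) with 0.25 in the M2 pair, and Ywhah, an adaptor protein that binds phosphorylated partners, rose by 0.47 with 0.19 in that pair. Psmb3, a subunit of the proteasome, rose by 0.44, with -0.04 in the M2 pair. Mylpf, a myosin light chain of skeletal muscle, was low throughout, at between 6.89 and 7.49 CPM in WT and between 9.34 and 16.1 CPM in het libraries, and rose by 0.78 (SE 0.17, edgeR adjusted p = 0.0321).

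**Figure D2:**
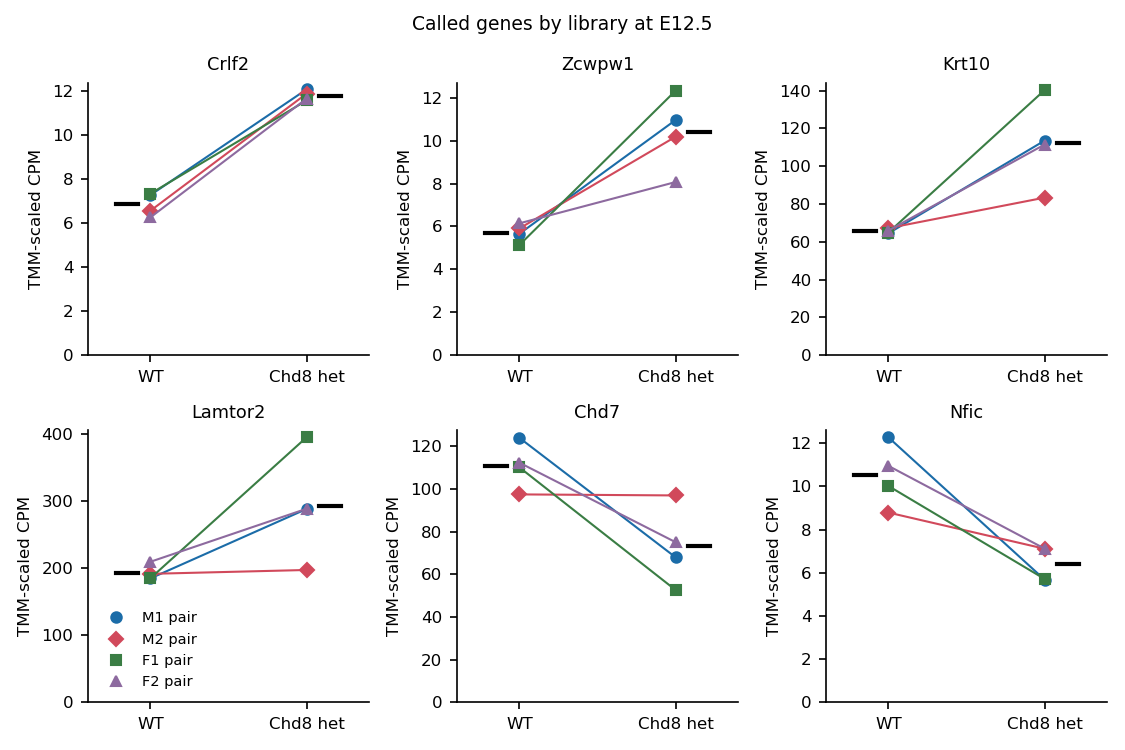
Levels of 6 called genes in the 8 libraries at E12.5, in TMM-scaled CPM with axes from 0. Lines join the WT and the het library of a pair and black bars are group means. The lines of Crlf2 are nearly parallel, Krt10 rose least in the M2 pair, and Lamtor2 and Chd7 hardly moved in the M2 pair, with log2 ratios of 0.04 and -0.01.

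Genes called lower in het included Chd7 and members of the nuclear factor I family. Chd7, a remodeller of the same family as Chd8 and the gene altered in CHARGE syndrome (chromosome 4, 8690406 to 8867659, plus strand), was at 124, 97.4, 110.0 and 112 CPM in WT and at 68.0, 96.9, 52.6 and 75.0 CPM in het M1, M2, F1 and F2. The groups did not overlap, but het M2 lay next to WT M2, and the other 3 het libraries lay far lower. It fell by 0.60 (SE 0.14, edgeR adjusted p = 0.0469), and was at -0.35 with depth as a covariate. Nfic, a nuclear factor I gene (chromosome 10, 81396186 to 81455635, minus strand), was at 12.3, 8.79, 10.0 and 10.9 CPM in WT and at 5.68, 7.11, 5.72 and 7.12 CPM in het libraries. It fell by 0.70 (SE 0.12, edgeR adjusted p = 0.0100), with -0.30 in the M2 pair and -0.66 with depth as a covariate. Nfix, of the same family and known to promote the differentiation of neural progenitors (chromosome 8, 84699876 to 84800344, minus strand), was at 111, 81.4, 86.7 and 81.0 CPM in WT and at 51.2, 71.1, 49.4 and 59.0 CPM in het libraries. It fell by 0.64 (SE 0.15, edgeR adjusted p = 0.0469), with -0.19 in the M2 pair and -0.40 with depth as a covariate. In Nfic and Nfix each het library lay below every WT library. Eya2, a transcriptional coactivator with phosphatase activity, was at 3.39, 3.54, 3.46 and 4.46 CPM in WT and 1.29, 1.83, 1.38 and 2.23 CPM in het libraries, far apart in every pair. It fell by 1.12 (SE 0.26, edgeR adjusted p = 0.0469), with -0.93 in the M2 pair. Of the 23 lower genes, Eya2, Mmp14 and Bcl2l2 changed by at least 0.5 times as much in the M2 pair as in the mean of the others.

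Further lower genes, picked after their values were seen and from no list, act at the cell surface or elsewhere. Lrp8, a reelin receptor, was at 27.0, 21.5, 24.4 and 22.4 CPM in WT and at 16.97, 19.9, 13.4 and 14.6 CPM in het libraries, with a log2 fold change of -0.55 (SE 0.10, edgeR adjusted p = 0.0170). Mmp14, a membrane-bound matrix metalloproteinase, was at 27.7, 26.3, 26.5 and 21.4 CPM in WT and at 14.1, 19.9, 14.7 and 14.6 CPM in het libraries. In both genes each het library lay below every WT library. Mmp14 fell by 0.68 on the log2 scale, Ltbp1, a matrix protein that binds latent TGF-beta, by 1.12, Antxr1, an anthrax toxin receptor, by 0.62, and Dag1, the laminin receptor dystroglycan, by 0.51. Markers of meningeal fibroblasts, cells that make matrix, were lower in het too, with median log2 ratios of -1.27, -1.001, -0.52 and -0.62 in the M1, M2, F1 and F2 pairs. Meningeal fibroblast-like cells took 1.04%, 1.33%, 1.03% and 1.70% of WT barcodes, against 0.799%, 0.751%, 0.665% and 1.24% of het barcodes, a lower share in each pair, and its part in the lower genes was not tested. Within radial glia-like cells Mmp14 was at -0.65, Ltbp1 at -1.16, Antxr1 at -0.61 and Dag1 at -0.51. The fibroblast markers Col3a1, Col1a2 and Foxc1 were at -0.76, -0.48 and -0.32 in that class. A class can hold RNA of other cells, so its values do not set the fibroblast share aside. None of these genes passed within that class. Dag1 overlapped between groups, since het M2 at 24.2 CPM exceeded WT M2 at 23.7 CPM. P4hb, a protein disulfide isomerase of the endoplasmic reticulum, was at 115, 115, 113 and 120.1 CPM in WT and at 71.3, 110.2, 57.3 and 89.9 CPM in het libraries, and fell by 0.49. Sfxn1, a mitochondrial serine transporter, was at between 189 and 195 CPM in all 4 WT libraries and at 121, 166, 99.5 and 133 CPM in het M1, M2, F1 and F2. The WT libraries were nearly level and every het library lay below them, and it fell by 0.57 (SE 0.13, edgeR adjusted p = 0.0469). Eef1b2, a translation elongation factor, fell by 0.42 with -0.23 in the M2 pair, and Cadps, a factor for the release of dense-core vesicles, fell by 0.81 with -0.29.

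The lower genes with the largest changes, Rspo2 and Rspo3, and with them Apcdd1 and Dkk3, belong to Wnt signalling and are known from the cortical hem. Rspo3, an R-spondin that enhances Wnt signalling at the cell surface (chromosome 10, 29452416 to 29535867, minus strand), was at 23.99, 11.5, 19.8 and 51.2 CPM in WT and at 6.97, 8.80, 10.2 and 8.19 CPM in het libraries. The WT libraries varied widely, with F2 far above the others, while the het libraries lay close together below the lowest WT library. The log2 fold change was -1.65 (SE 0.36, edgeR adjusted p = 0.0350) and the M2 pair gave -0.39. Apcdd1, an inhibitor and known target of Wnt signalling, was at 9.09, 4.40, 8.01 and 11.7 CPM in WT and at 3.31, 3.59, 3.43 and 3.41 CPM in het libraries, with a log2 fold change of -1.27 (SE 0.22, edgeR adjusted p = 0.0122). Its groups did not overlap either, and WT M2 lay nearest to the het libraries. Dkk3, a member of the Dickkopf family, was at 4.12, 2.47, 3.92 and 7.11 CPM in WT and 1.85, 2.64, 2.35 and 2.11 CPM in het libraries. Het M2 exceeded WT M2, and the gene fell by 0.97 (SE 0.22, edgeR adjusted p = 0.0443). Rspo2, a further R-spondin, was at 1.21, 0.137, 0.682 and 6.15 CPM in WT and 0 to 0.190 CPM in het libraries (edgeR adjusted p = 0.0342), with het M2 above WT M2. Rspo1 was at 4.93, 2.94, 4.13 and 25.7 CPM in WT and at 1.53, 2.71, 4.27 and 1.22 CPM in het libraries, which overlapped, and did not pass (edgeR adjusted p = 0.0629). WT F2 was the highest library in each of these 5 genes. Without it Rspo3 had a log2 fold change of -1.12 (edgeR adjusted p = 0.150), Apcdd1 of -1.06 (edgeR adjusted p = 0.0590), Dkk3 of -0.64 (edgeR adjusted p = 0.160), Rspo2 of -2.31 (edgeR adjusted p = 0.163) and Rspo1 of -0.74 (edgeR adjusted p = 0.454). Rspo3 and Dkk3 also missed the threshold without any other single library except WT M2 and het M2. Apcdd1 missed it without WT M1, het M1 or het F1, and Rspo2 without WT M1, het M1, het F1 or het F2. With depth as a covariate and all 8 libraries Rspo3 was at -1.38, Apcdd1 at -1.28 and Dkk3 at -0.96.

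Part of the UMIs of these genes came from a small group of cells. At a higher clustering resolution a cluster of 473 cells, led by Rspo1, Wnt8b, Rspo3 and Sp5 and with Mki67, a marker of dividing cells, in 78.7% of its cells, was named hem-like from its markers. It made up 2.05%, 0.966%, 1.94% and 2.62% of barcodes in WT M1, M2, F1 and F2, and 0.0228%, 0.404%, 0.0917% and 0.662% in the het libraries. The cells were clustered partly on the genes named above, so the share is a description and was not tested. Its cells were not alike between libraries. The 151 cells of WT F2 held 1350 Rspo3 and 1098 Rspo1 UMIs, the 118 of WT M1 held 397 and 188, and the 96 of WT F1 held 174 and 89. The 42 cells of WT M2 held 2 Rspo3 and 0 Rspo1 UMIs, and the 66 cells of the het libraries held 11 and 0. Neither of these sets held UMIs of the hem markers Rspo2, Wnt3a or Lmx1a, so that these markers do not bear out the hem name there. A smaller share in het therefore counts cells with few or no R-spondin UMIs in the M2 pair and in het F2, and most Rspo3 UMIs lay outside the cluster in every library. Hem and choroid markers summed to between 24.5 and 92.2 CPM in WT and between 12.1 and 21.6 CPM in het libraries, and none of the 11 markers was at 0 in all libraries. In the cells outside the cluster Rspo3 was at 15.5, 10.2, 15.8 and 26.7 CPM, scaled by library totals, in WT and at 5.88, 7.95, 8.24 and 6.75 CPM in het libraries, and the groups still did not overlap. Those cells include a Cajal-Retzius-like cluster with Rspo3 among its leading genes. Its share was lower in het in the M1, F1 and F2 pairs, and its part in the Rspo3 level was not tested. Without the cluster, 36 genes were called, 31 higher and 5 lower and all of them among the 75. Apcdd1 still passed, with a log2 fold change of -0.89 (edgeR adjusted p = 0.0467). Rspo3, at -1.17 (edgeR adjusted p = 0.0841), Dkk3, at -0.43 (edgeR adjusted p = 0.208), and Rspo2, at -2.12 (edgeR adjusted p = 0.141), did not. Chd7, Nfix, Mmp14, P4hb, Sfxn1 and Cadps missed the threshold too, with edgeR adjusted p from 0.0557 for Sfxn1 to 0.0747 for Cadps. Their log2 fold changes ran from -0.48 for P4hb to -0.72 for Cadps. Nfic, Lrp8 and Eef1b2 still passed. How much medial tissue was left in each dissection is not given in the sources used here, and fewer hem cells and less RNA per hem cell cannot be told apart in the summed counts.

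**Figure D3:**
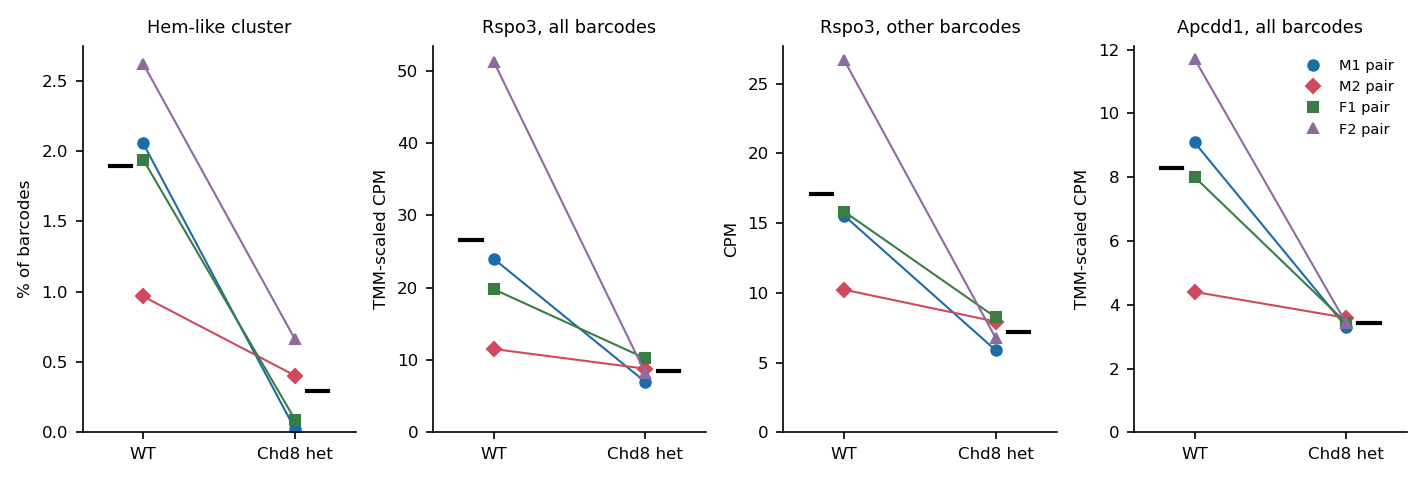
Share of barcodes in the hem-like cluster, Rspo3 in all barcodes (TMM-scaled CPM), Rspo3 in barcodes outside that cluster (CPM of the library total) and Apcdd1 in all barcodes (TMM-scaled CPM), in the 8 libraries at E12.5. Lines join pairs and black bars are group means. All het libraries lay below all WT libraries in each panel, and the difference was smallest in the M2 pair.

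The 75 calls were then set against the order of depth among het libraries. Among the 52 genes called higher, het F1, the shallowest, lay farthest from WT in 46 (88.5%), against 45.7% of all genes with a higher fold change. Het M2, the deepest, lay nearest to WT in 40 of the 52 (76.9%), against 44.01%. Among the 23 called lower, het F1 lay farthest in 14 (60.9%), near the 52.2% of all genes with a lower fold change, and het M1 in 9 (39.1%), against 23.2%. Het M2 lay nearest in 19 (82.6%), against 57.4%. The median log2 ratio of the 52 genes was 0.52, 0.15, 0.79 and 0.45 in the M1, M2, F1 and F2 pairs, and that of the 23 genes was -1.12, -0.29, -0.96 and -0.68. In the M2 pair 48 of the 52 and 20 of the 23 had the sign of the call. Of all genes tested, 990 had groups that did not overlap with het higher (6.19%) and 843 with het lower (5.27%), and 45 and 20 of the called genes were of this kind. The M2 pair and the other pairs all went into the calls. The signs in the M2 pair and the lack of overlap among called genes therefore follow in part from the choice. With depth as a covariate the median log2 fold change moved from 0.49 to 0.32 for the 52 genes and from -0.80 to -0.60 for the 23. The M2 pair also carries another code in the labels, so that depth and whatever the code stands for cannot be told apart.

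**Figure D4:**
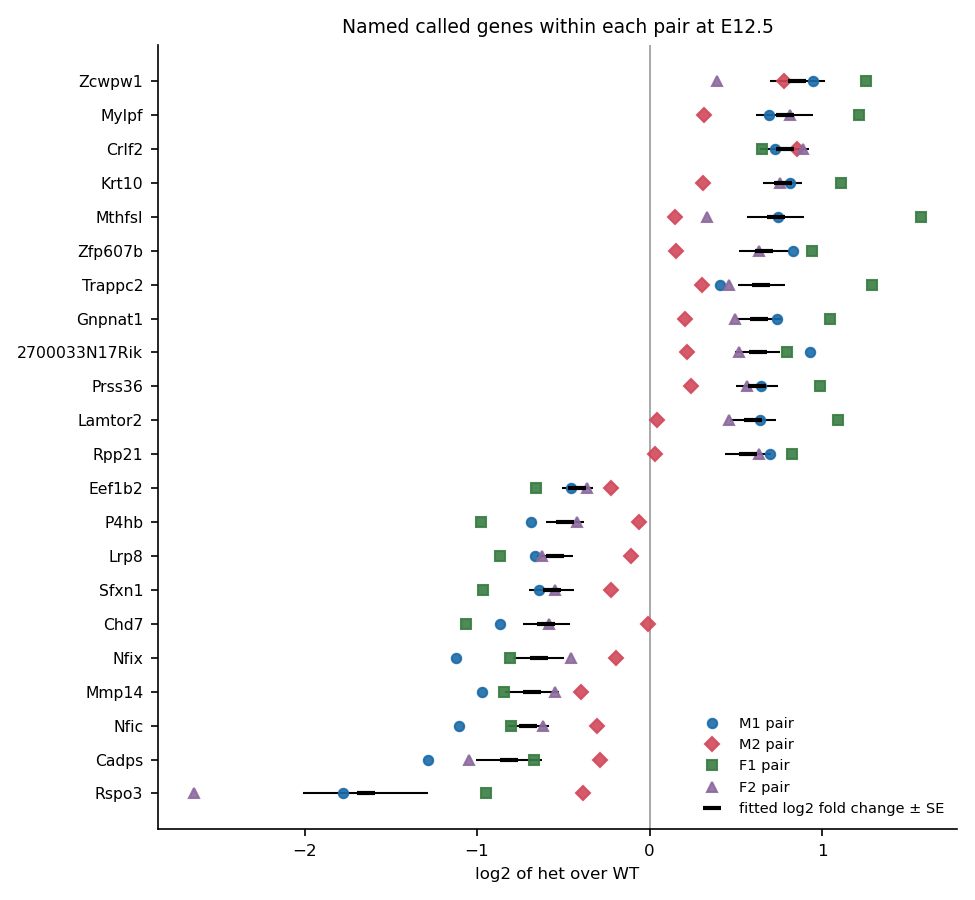
Log2 ratio of het over WT within each of the 4 pairs at E12.5, for Crlf2, Zcwpw1 and other abundant called genes with large changes. Coloured markers are pairs and black bars are the fitted log2 fold change with its SE. Markers of the M2 pair lie closest to 0 for most genes, at 0.04 for Lamtor2 and -0.01 for Chd7, but not for Crlf2, at 0.85.

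Gene lists were described by the number of members called and by their median log2 fold change, beside the median of -0.03 over all genes. Of all 15997 genes, 7292 had a positive fold change and 0.325% were called higher. Adjusted p values of single members come from the fit without the block. With the block, 35 of the 70 named genes gained a call and none lost it. Mitochondrial ribosomal proteins, which serve the translation of genes encoded in mitochondrial DNA, had a median of 0.21 over 77 tested members, with 69 positive and 2 called higher. Groups did not overlap with het higher in 6 of the 77 (7.79%), near the 6.19% of all genes. Subunits of oxidative phosphorylation encoded in the nucleus had a median of 0.25 over 80 members, with 71 positive and 1 called. Their partners encoded in mitochondria had a median of 0.26 over 11 members, with 8 positive and none called. For these 3 lists the M2 pair gave medians of -0.02, -0.10 and -0.14, against 0.36, 0.49 and 0.49 in the F1 pair, and the fit with depth as a covariate gave 0.07, 0.01 and 0.04. With the pair as a block edgeR called 7.45% of all genes higher and 6.83% lower. It called 36 mitochondrial ribosomal proteins higher (46.8%) and 2 lower (2.6%), 29 nuclear-encoded subunits higher (36.25%) and 2 lower (2.5%), and 5 mitochondrially encoded subunits higher (45.45%) and 0 lower. Uqcrb, a subunit of complex III, was at 576, 719.9, 583 and 634 CPM in WT and 891, 636, 1246 and 905 CPM in het M1, M2, F1 and F2 (log2 fold change 0.55, edgeR adjusted p = 0.0672). Het M2 lay below its WT partner, and the other 3 het libraries lay well above theirs. Replication-dependent histones, whose transcripts mostly lack a poly(A) tail, had a median of 0.16 over 58 members, with -0.34 in the M2 pair and -0.26 with depth as a covariate.

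Lists on the lower side held few calls, where 0.144% of all genes were called lower and 8694 of 15997 had a negative fold change. Of 10 CHD remodellers 1, Chd7, was called, and 9 had a negative fold change. The median was -0.17, with -0.03 in the M2 pair and -0.02 with depth as a covariate. Groups did not overlap with het lower in 4 of the 10 (40%, against 5.27% of all genes). With the pair as a block 3 were called lower (30%, against 6.83%) and 0 higher. Chd8, which the genotype itself alters, is on this list and is counted among the 4 and the 3. Chd3, a subunit of the NuRD complex, was at 120.2, 87.8, 105 and 107 CPM in WT and at 71.3, 78.6, 71.9 and 80.2 CPM in het libraries, without overlap, but did not pass in the fit without the block (log2 fold change -0.48, edgeR adjusted p = 0.166). Of 32 autism risk genes none was called, 25 were negative and the median was -0.21, with 0.03 in the M2 pair and -0.11 with depth as a covariate. With the pair as a block 7 were called lower (21.9%, against 6.83% of all genes) and 1 higher. Tcf4, a transcription factor altered in Pitt-Hopkins syndrome, was at -0.39 (edgeR adjusted p = 0.161) and Tcf20 at -0.43 (edgeR adjusted p = 0.136). Of 35 axon guidance genes none was called, 27 were negative and the median was -0.21, with 0.16 in the M2 pair and -0.08 with depth as a covariate, and 5 were called lower with the block (14.3%). Ephb1, an ephrin receptor, was at 12.7, 7.96, 10.8 and 13.5 CPM in WT and at 4.19, 6.80, 6.20 and 7.29 CPM in het libraries, again without overlap (log2 fold change -0.87, edgeR adjusted p = 0.175). Of 27 tested Wnt and beta-catenin genes 2 were called lower, Apcdd1 and Dkk3, and the median was -0.14, with 0.01 in the M2 pair and -0.07 with depth as a covariate. With the block 6 were called lower (22.2%).

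In all, 16 of 21 gene lists held no member called by edgeR, where 0.469% of all genes were called. In the fit with the block all 21 held at least 1, where 7.45% of all genes were called higher and 6.83% lower, so that a list of this size would often hold a call. The median was 0.05 over 24 replication genes and -0.0035 over 24 mitosis genes, 0.07 over 24 BAF subunits, 0.08 over 22 genes of cholesterol synthesis, 0.02 over 19 Notch genes, -0.04 over 20 p53 targets, 0.01 over 40 splicing factors and 0.01 over 81 cytosolic ribosomal proteins. Of these 81, groups did not overlap with het lower in 9 (11.1%, against 5.27% of all genes) and with het higher in 1. With the block 11 of them were called lower (13.6%) and 2 higher (2.47%). Groups did not overlap with het higher in 4 replication genes and in 4 mitosis genes (16.7% each, against 6.19% of all genes). With the block 5 mitosis genes were called higher (20.8%) and 1 lower, and 2 replication genes higher (8.33%) and 1 lower. When libraries were scaled by their totals, the medians of the replication genes, BAF subunits, cholesterol genes, Notch genes, splicing factors and cytosolic ribosomal proteins turned negative, at between -0.01 and -0.08, as the median of all genes moved to -0.11. Each still lay above that of all genes, and those of the mitochondrial lists stayed positive. The mitosis genes had a median of 0.02 by DESeq2. Fdps, an enzyme of cholesterol synthesis, had a log2 fold change of 0.37 (edgeR adjusted p = 0.0513), U2af1, a splicing factor, 0.55 (edgeR adjusted p = 0.0663), and Bax, a p53 target that promotes apoptosis, 0.32 (edgeR adjusted p = 0.0792). Of the 20 p53 targets 12 had a negative fold change. Groups did not overlap with het lower in 4 of the 20 (20%) and with het higher in 1 (5%). Cdkn1a, another p53 target, was not called, and was at -0.88 to -0.61 over 23 alternative fits. Genes that respond to cell dissociation had a median of 0.12 over 20 members and none was called by edgeR. In the fit with the block 5 were called higher (25%, against 7.45% of all genes) and 1 lower, and groups did not overlap with het higher in 3 (15%, against 6.19%). Among them Jund was at 365, 404, 404 and 425 CPM in WT and at 621, 430.4, 927 and 551 CPM in het libraries (edgeR adjusted p = 0.0613). Of 10 nuclear and noncoding RNAs none was called by edgeR and 9 had a negative fold change. The median was -0.30, with -0.21 in the M2 pair and -0.18 with depth as a covariate. With the block 4 of the 10 were called lower (40%, against 6.83% of all genes) and 0 higher. Meg3, from that list, was at 194, 177, 174 and 176 CPM in WT and at 88.8, 181, 45.1 and 112 CPM in het libraries (log2 fold change -0.76, edgeR adjusted p = 0.230). In Jund and Meg3 het M2 lay next to WT and het F1 lay farthest away.

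**Figure D5:**
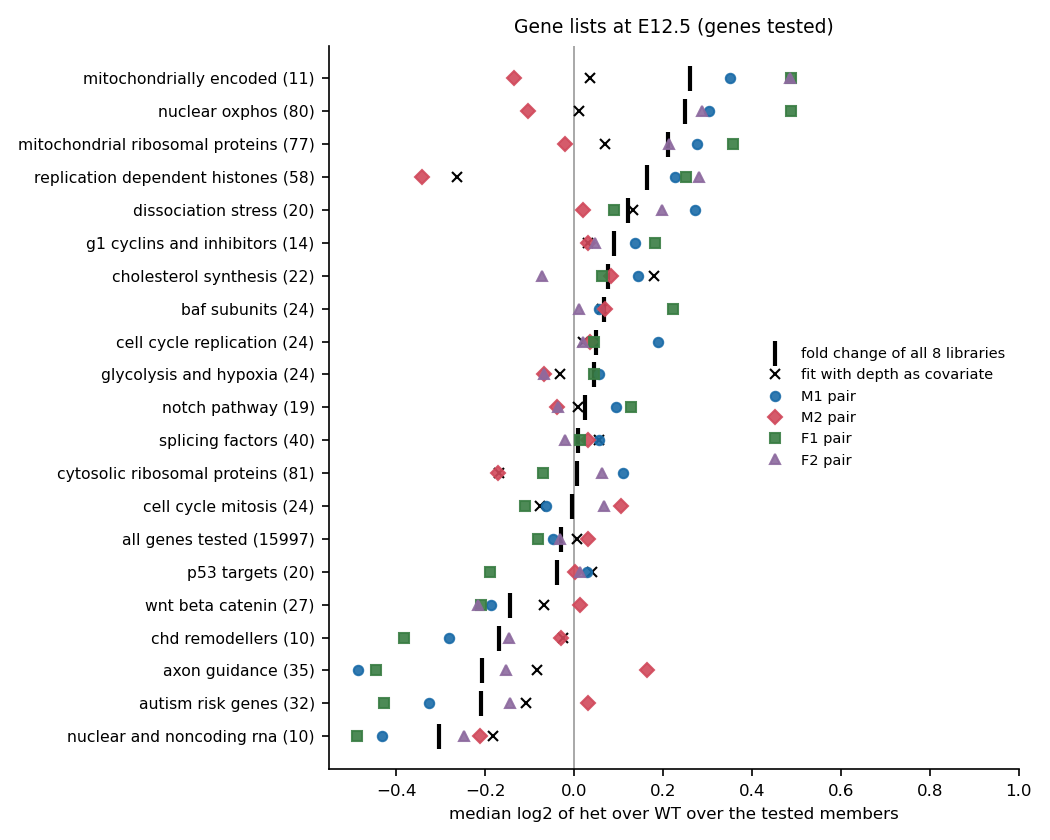
Median log2 of het over WT at E12.5 over the tested members of each gene list and over all genes tested (number of genes in brackets). Black bars are medians of the fitted fold change, crosses those of the fit with depth as a covariate, and coloured markers those of each pair. In the mitochondrial lists the M1, F1 and F2 pairs lie above 0 and the M2 pair lies below 0, at -0.02 to -0.14.

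Markers of other cell types that the tissue can hold varied between embryos. Blood markers summed to between 4918 and 14132 CPM in WT and between 1246 and 14077 CPM in het libraries, and Hbb-bs, a beta-globin, was at 849, 709, 372 and 343 CPM in WT and 228, 516, 197 and 191 CPM in het libraries. Meningeal fibroblast markers summed to between 84.7 and 155 CPM in WT and between 59.5 and 93.5 CPM in het libraries. All 7 tested members of that list had negative fold changes, with a median of -0.81 and no call by edgeR, and with the pair as a block 6 of them were called lower (85.7%, against 6.83% of all genes). Col3a1, a fibrillar collagen, was at 45.4, 44.6, 27.7 and 55.3 CPM in WT and at 24.9, 21.3, 26.6 and 32.5 CPM in het libraries (log2 fold change -0.72, edgeR adjusted p = 0.259). Endothelial markers summed to between 39.0 and 89.8 CPM, pericyte markers to between 18.6 and 42.0 CPM, and markers of microglia or macrophages to between 6.08 and 108 CPM over the 8 libraries. In none of these lists was a marker at 0 in all libraries. Het M1 held 0 of 4383 barcodes in the cluster of ventral cells, and a count of 0 allows up to 0.0684% of barcodes, counting error only. The part of these cells in the called genes was not tested.

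To describe which cells were present, cells were clustered without their genotype and named from markers. Radial glia-like cells made up 64.4 ± 3.41% of het and 66.1 ± 3.29% of WT barcodes (SD, n = 4 each), a difference within the spread between libraries (exact permutation p = 0.457, adjusted over 4 classes 0.457). Intermediate progenitor-like cells made up 18.3 ± 1.45% and 16.9 ± 1.74% (exact permutation p = 0.229, adjusted 0.457), and excitatory neuron-like cells 9.38 ± 2.91% and 10.7 ± 2.04% (exact permutation p = 0.457, adjusted 0.457). Cajal-Retzius-like cells, the early reelin-secreting neurons that arise in part from the hem, were at 1.24%, 1.13%, 1.62% and 1.09% in WT and at 0.639%, 1.16%, 0.688% and 0.794% in het M1, M2, F1 and F2. Their mean was 1.27 ± 0.240% in WT and 0.819 ± 0.233% in het libraries, and 3 het libraries lay below all WT libraries (exact permutation p = 0.0857, adjusted 0.343). The smallest p that 4 libraries against 4 can give is 0.0286. The shares depended on the clustering. At a lower resolution intermediate progenitor-like cells made up 7.65% of het and 7.78% of WT barcodes, excitatory neuron-like cells 18.3% and 18.0%, and Cajal-Retzius-like cells 1.70% and 2.39%. At a higher resolution radial glia-like cells made up 39.0% of het and 41.9% of WT barcodes. A pair of radial glia-like clusters led by genes such as Rpgrip1, Notch2 and Prr15 held 12.9%, 5.96%, 13.7% and 17.8% of barcodes in WT M1, M2, F1 and F2 and 24.3%, 3.85%, 23.1% and 26.5% in het. Both libraries of the M2 pair lay below the other 6, and the 3 shallower het libraries lay highest. An unnamed cluster of low depth, at 0.557 of the level of its libraries, took 2.02%, 1.52%, 0.909% and 2.24% of WT and 6.75%, 1.29%, 6.24% and 3.90% of het barcodes.

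Within classes edgeR called few genes and DESeq2 more, with 886 in radial glia-like, 202 in intermediate progenitor-like and 32 in excitatory neuron-like cells. In intermediate progenitor-like cells 1 of 11491 genes was called (0.0087%), Htr3a, a serotonin-gated ion channel, at 14.7, 12.6, 13.7 and 13.0 CPM in WT and 3.70, 6.43, 5.79 and 5.63 CPM in het M1, M2, F1 and F2. Each het library lay far below each WT library, the M2 pair included, with a log2 fold change of -1.29 (SE 0.17, edgeR adjusted p = 0.0367). With the pair as a block Htr3a did not pass (edgeR adjusted p = 0.113), and Stmn4, a neuronal stathmin, did (log2 fold change 0.92, edgeR adjusted p = 0.0454). Stmn4 was at 51.3, 35.5, 52.1 and 55.4 CPM in WT and 96.2, 64.6, 126 and 87.3 CPM in het libraries. In excitatory neuron-like cells 0 of 11200 genes passed by edgeR (0%), with 1349 at an unadjusted p under 0.05. Chd7 had log2 fold changes of -0.66 in radial glia-like, -0.59 in intermediate progenitor-like and -0.52 in excitatory neuron-like cells, and Krt10 had 0.75, 0.78 and 0.79. Rspo3 was at -1.95, -1.25 and -0.43 and Apcdd1 at -2.02, -0.78 and -0.13 in the same order, and none of these 4 genes passed within a class. No hem-like class was named at this resolution, so that these classes can hold the hem-like cells. Those cells held 1923 Rspo3 and 495 Apcdd1 UMIs in WT, against 11 and 2 in het, and their part in the class values was not tested. Free RNA was not modelled, so that a class can hold RNA of others. Without het M2 the counts were 4118 genes in radial glia-like, 2006 in intermediate progenitor-like and 1117 in excitatory neuron-like cells, and leaving out any other single library gave 0 in each class.

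The E12.5 contrast was compared with the mean of the same contrast at E14.5, E16.0 and E17.5, which share no library with it. The difference passed for 0 of 15997 genes by edgeR (0%), with 2159 at an unadjusted p under 0.05, and for 412 by DESeq2. With the pair as a block it passed for 1431 genes, and without het M2 at E12.5 for 943. Crlf2 had log2 fold changes of 0.74, 0.68 and 0.54 at E14.5, E16.0 and E17.5, Zcwpw1 had 0.65, 0.80 and 0.69, Vpreb1 had 0.54, 0.80 and 0.87, and Xrcc4 had 0.42, 0.44 and 0.42. Crlf2 and Zcwpw1 had been listed for being raised at all stages, which fixes these signs, and Vpreb1 and Xrcc4 were picked after their values were seen. None of the 4 passed at a later stage alone, where the smallest edgeR adjusted p among them was 0.104, for Crlf2 at E14.5. The median over the 52 higher genes was 0.49 at E12.5 and 0.05, 0.10 and -0.01 at the later stages, and 22 had a positive sign at all 3. The median over the 23 lower genes was -0.80 at E12.5 and -0.01, 0.02 and 0.09 later, and 3 had a negative sign at all 3. Since the 52 and the 23 genes were chosen at E12.5, smaller values at other stages follow in part from the choice. Chd7 was at 0.03, 0.02 and 0.12 at the later stages, and the difference between E12.5 and these stages, of -0.65, did not pass (edgeR adjusted p = 0.144).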

How the data were processed

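Single cells of 8 embryos at E12.5 were profiled by 10x 3′ sequencing, and the deposited values are raw UMI counts per gene and barcode, per the file headers. The submitters' processing notes name mm10, STAR 2.7.9a, STARsolo and Cell Ranger without their roles. The annotation, the strand setting and how cells were called are not given in sources used here. Of 40820 barcodes deposited at E12.5, 40792 passed the filter of at least 1000 UMIs and 500 genes. Of 32285 gene identifiers, 99.61% were in GENCODE M21 (GRCm38), which gave the coordinates.

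Counts were summed per library and tested with edgeR 4.0.16 (quasi-likelihood, TMM, filterByExpr) in R 4.3.3 over all 32 libraries in 8 groups, with Benjamini-Hochberg adjustment over all genes tested and a threshold of 0.05. Alternatives used DESeq2 1.42.0, a replicate block, depth as a covariate, other scalings and filters, thinned barcodes and single libraries left out. Pair ratios are log2 of CPM + 0.05. The design text gives pairs by litter and sex, so same-named libraries were treated as pairs. Over 4631 genes their deviations correlated at -0.0419 (M1), 0.3393 (M2), 0.0487 (F1) and 0.4424 (F2), and those of unlike-named libraries at between -0.4465 and 0.4153 (WT F2 with het M1), so the counts do not set the pairs apart and the pairing rests on the design text.

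Cells were clustered by the Leiden method (igraph 0.11.9) on 2000 variable genes, 30 principal components and 20 neighbours at resolution 1, with 0.5 and 2 as alternatives, which gave 22 clusters. No doublet caller was run, no library correction was made, and the rule for naming clusters was changed once after names had been seen. On simulated counts the test over all cells recovered 58% of 100 genes changed 1.5-fold and 90% of 100 changed 2-fold, with 9 false calls among 15892 genes. The simulated libraries kept their totals but held no other difference tied to depth or cell composition. The changed genes were drawn from those averaging over 100 UMIs a library. These rates therefore need not hold for the real libraries, where depth moves with genotype.

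Genes named were Chd8, an earlier list, up to 12 called genes a direction whose log2 CPM averaged 3 or more and whose sign matched in 4 of 4 pairs, and up to 3 members a list with the smallest p. Other genes were chosen after their values were seen, as stated beside them or because they were called. A gene that the rule names is not reported here. Members and lists were chosen with earlier results of these data known.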

Additional observations from a re-analysis of the deposited data

Results flagged for a closer look

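In 10 cases a single library lay apart from the other 3 of its group by Dixon's test, over 152 groups of 4, where chance gives about 1 in 20. Chd8 was lowest in het F1, at 25.0 CPM. Trappc2 was highest in het F1, at 53.5 CPM, Mmp14 in het M2, at 19.9 CPM, and Hbb-bs in het M2, at 516 CPM. Among WT libraries, Rspo1 was highest in F2, at 25.7 CPM, as was Foxc1, a meningeal transcription factor, at 6.35 CPM against 3.74 to 3.99 CPM in the others. Gadd45g, a gene of intermediate progenitors, was highest in WT M1, at 584 CPM, and Meg3 also, at 194 CPM, while Sfxn1 was lowest there, at 189 CPM. The mitochondrial gene mt-Cytb was highest in WT M2, at 3440 CPM.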

How the results depend on the processing

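The count of 75 genes over all cells was 2284 with the pair as a replicate block, 163 with RLE scaling, 34 with library totals, 687 by DESeq2, 12 with no filter on low counts and 46 from barcodes of at least 3000 UMIs and 1500 genes. It was 0 by edgeR for E12.5 libraries alone (3528 at an unadjusted p under 0.05), 0 for these with the block (3841), 0 with barcodes thinned to 3000 UMIs (2621) and 0 with depth as a covariate (721). Without the M2 pair it was 1085, of which 74 were among the 75. Of alternatives chosen after seeing the data, the block without the M2 pair gave 4295, the block with depth 1 and the sums without hem-like cells 36. Leaving out single libraries gave 1 to 1537.

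The count for the contrast against later stages, 0, was 1431 with the block and 412 by DESeq2, and 0 to 943 without single libraries. In radial glia-like cells 1 gene became 0 with the block, 886 by DESeq2 and 0 to 4118 without single libraries. In intermediate progenitor-like cells 1 became 202 by DESeq2 and 0 to 2006, and in excitatory neuron-like cells 0 became 32 by DESeq2 and 0 to 1117. The cause of these changes was not tested. At a lower clustering resolution the het minus WT difference reversed for the share of intermediate progenitor-like cells, to -0.134 percentage points, and of excitatory neuron-like cells, to 0.310. For 70 named genes, 1081 of the alternative values kept their direction and side of the threshold, 390 lost the call, 136 gained it and none reversed. With the pair as a block 35 of the 70 genes gained the call and none lost it. With 4 libraries a group and depth tied to genotype in 3 pairs, changes with genotype and with depth cannot be told apart there.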
